A study of Mus musculus with 12 samples.

Results

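Egr1 and Foxo3 encode transcription factors tied to the resting state of blood stem cells, and their promoter contacts were set side by side in mouse HSCs (haematopoietic stem cells) from fetal liver and from adult bone marrow. The members were all listed contacts of a captured promoter fragment named Egr1 or Foxo3 in the deposited table. They numbered 26 of 89545, with 15 for Egr1 and 11 for Foxo3, from 2 of 3781 promoter entries. Both promoters were captured in the first of 2 batches only, which held 1952 promoter entries and 49944 listed contacts. An alternative promoter of either gene was not among the entries.

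The fetal group was B6129SF1 HSCs of embryonic day 14.5 fetal liver, and the adult group was B6129SF1 HSCs from the bone marrow of mice aged 6 to 8 weeks. Both were sorted as Lin-Sca1+cKit+CD135-, a gate that also admits multipotent progenitors, and the labels name no genetic change or treatment in either. Each population had 4 Capture-C libraries, 2 per batch, but the table pools them to a single value. The differences described here have no replicate check for that reason, and none was tested. The series also holds 4 libraries of HPC7 cells, a mouse blood progenitor line of wild-type or TCF3-knockout genotype, which were not analysed here.

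Egr1 is an immediate early gene, switched on within minutes by growth factor and stress signals, and its zinc finger protein is known to hold HSCs in their niche and out of division. Foxo3 is a forkhead factor that enters the nucleus when PI3K and AKT signalling is low, where it activates genes of cell cycle arrest and of defence against oxidative damage. Loss of Foxo3 is known to exhaust adult HSCs. Fetal liver HSCs divide actively, whereas most adult HSCs rest. Promoter Capture-C ligates the ends of cross-linked chromatin cut with DpnII and enriches the products of chosen promoters with probes, so that counts show how often a distal bin was joined to a promoter.

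Of 7 HSC and progenitor markers, 5 had a listed FPKM (an RNA level scaled to transcript length and library size). These were Kit, Cd34, Procr, Gata2 and Hlf, all above 0, with a summed FPKM of 125 in fetal and 178 in adult cells. Of 12 markers of other cells, 5 were listed (Flt3, Itgam, Marco, Spic and Cd68), with none at 0 and a sum of 21.4 FPKM in fetal and 6.21 in adult cells. Flt3 encodes CD135, which the sort excluded, and stood at 6.20 FPKM in fetal and 3.81 in adult cells. The part of these other cells in the results below was not tested. Over the batch, listed contacts summed to 1312829 fetal and 1098957 adult counts, with 32260 fetal and 30529 adult calls.

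Egr1 RNA was far higher in adult cells. Its FPKM was 0.702 in fetal and 25.3 in adult HSCs, a 36.1-fold adult excess, or -3.95 as the log2 ratio of fetal to adult FPKM after adding 1 to each. Only 7 of the 1952 promoter entries of the batch had a ratio further to the adult side. The authors' deposited table marks Egr1 as differentially expressed, as it does 35.5% of the batch's entries, and 19.7% of entries are marked and higher in adult cells. Foxo3 RNA was at 10.1 FPKM in fetal and 11.1 in adult cells, a log2 ratio of -0.13, where the batch median was -0.04. The authors' deposited table does not mark Foxo3. In such bulk RNA values, fewer expressing cells and less RNA per cell cannot be told apart.

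The Egr1 promoter had 9 contacts called in fetal and 10 in adult cells at the deposited threshold, but 2 and 7 at a stricter score. A contact counted as called in a population when its deposited score was above 0. The lowest such score in the batch was 1.30, the size that −log10 of a p of 0.05 would have. The batch medians were 11 fetal and 10 adult calls. The log2 ratio of Egr1 for fetal to adult calls, after adding 1 to each, was -0.14, with 734 entries of the batch below it and 1209 above. When called bins up to 5 kb apart were merged the ratio turned to 0.19, with 7 fetal and 6 adult regions. At a score 1 unit stricter it was -1.42, so that the near balance of the calls held at the deposited threshold and not at the stricter score. No batch value at the stricter score is given here, and whether the whole batch shifts in the same way was not tested.

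**Figure D1:**
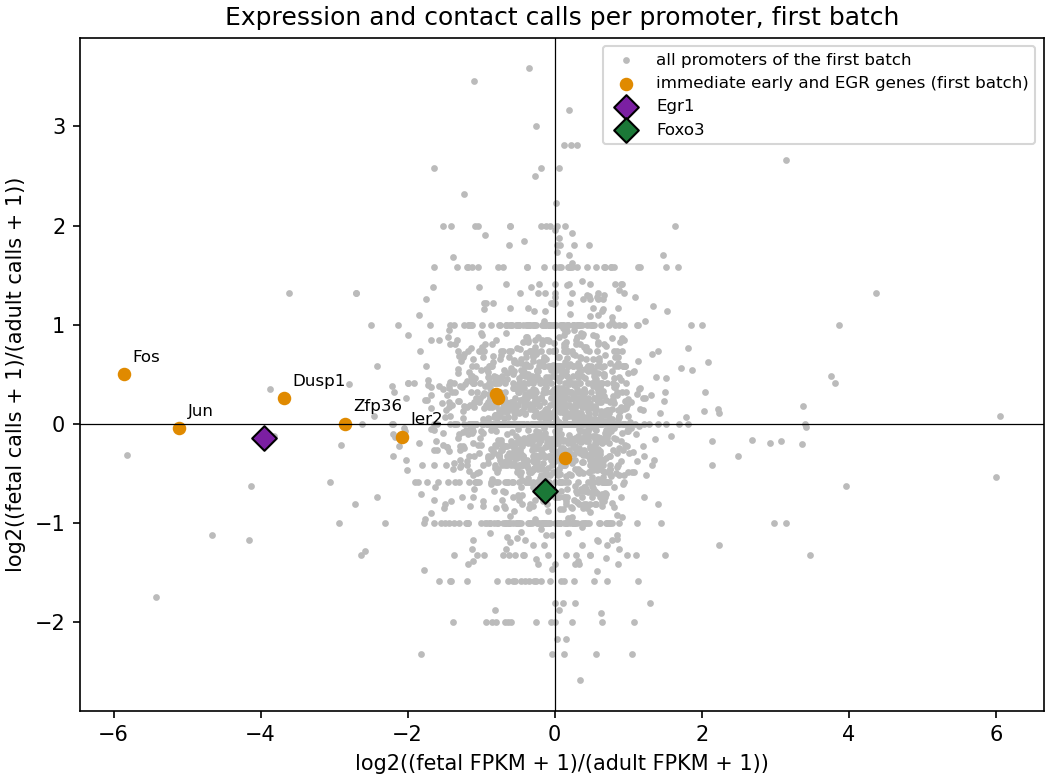
Each point is a promoter entry of the first batch, with the log2 ratio of fetal to adult FPKM on the horizontal axis and that of contact calls on the vertical axis, each after adding 1, and orange points for immediate early and EGR genes. Egr1 lies at -3.95 and -0.14, far to the adult side in RNA but near 0 in calls, and Foxo3 lies at -0.13 and -0.68.

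Other promoters with much more adult RNA, looked up after the values of Egr1 were known, varied in both directions. In the batch, 13 entries (0.666%) had a log2 FPKM ratio of -3 or lower, Egr1 included. Of these, 9 had more adult and 4 more fetal calls, with a median log2 ratio of calls of -0.14 and a range of -1.75 to 1.32. Over all entries of the batch the median was 0, with more adult calls at 42.1% and more fetal calls at 48.1%.

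The 15 Egr1 contacts comprised 5 called in fetal cells only, 6 in adult cells only and 4 in both. Across the batch 38.9% of listed contacts were fetal only, 35.4% adult only and 25.7% shared, or 39.3%, 35.6% and 25.1% over the distances that Egr1 covers. The 4 shared contacts were 44.4% of the fetal Egr1 calls (exact Clopper-Pearson 95% interval 13.7 to 78.8) and 40.0% of the adult calls (12.2 to 73.8), beside 39.8% and 42.1% over the batch. Both batch values lie within the intervals of Egr1. The contacts lay 24.3 to 800 kb away, with medians of 83.7 kb for fetal and 82.3 kb for adult calls. Over the batch, 70.9% of entries with at least 10 listed contacts had a nearest contact at least as far. All intervals here cover counting error only, and reads without molecular identifiers are not independent molecules.

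The captured Egr1 fragment (transcript ENSMUST00000165033) lay at chr18:35020475-35020866 (mm9, 391 bp), and the strongest signal was a run of 3 neighbouring bins on the side of higher coordinates. The bin 35044001 to 35046001, 24.3 kb away, had 45 fetal and 55 adult counts with scores of 2.21 and 4.14. The next bin, at 26.3 kb, had 48 fetal and 60 adult counts with scores of 2.64 and 5.21. The third, at 28.3 kb, had 38 fetal and 34 adult counts with scores of 1.99 and 2.05. Every bin of the run was called in both populations, and together they held 131 of the 251 fetal and 149 of the 275 adult Egr1 counts, which is 52.2% and 54.2%. The later pair was marked as active enhancer and as open chromatin in both populations, and the bin nearest to Egr1 was marked as active enhancer in fetal cells only. The fetal share of counts over the run was 46.8% (40.8 to 52.8), whereas it was 54.0% over all contacts of the batch within a chromosome.

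The highest score of Egr1 belonged to adult cells. The bin 35090001 to 35092001, 70.3 kb away, had 19 fetal counts with a score of 2.35 and 34 adult counts with a score of 9.05. Its neighbour at 72.3 kb had 12 fetal and 21 adult counts and was called in adult cells alone, with a score of 4.23. Both bins were open in both populations and carried neither a promoter nor an enhancer mark. Over this pair the fetal share of counts was 36.0% (26.0 to 47.1), an interval below the batch's 54.0%. The pair was named for its adult scores, so the share is not independent of them. This pair and the run at 24.3 to 28.3 kb lie on the same side as Etf1 and Hspa9, the next protein-coding genes in RefSeq's order.

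Adult-only contacts of Egr1 fell mainly on promoters. Of the 6, 5 lay in bins marked as active promoters in both populations. Over the batch, 18.3% of adult calls and 15.6% of fetal calls bore this mark in the calling population, shared calls included. All 6 bins were open in both. These promoter bins were at 235.7 and 209.7 kb on the lower side, and at 92.3, 94.3 and 702 kb on the higher side. The bins at 92.3 and 94.3 kb adjoin. The adult counts of the 6 contacts ran from 10 to 21 and the fetal counts from 5 to 14. Only the contact at 209.7 kb had more fetal than adult counts, with 14 and 11, a fetal share of 56.0% (34.9 to 75.6) beside the batch's 54.0%. It was called in adult cells with a score of 3.22 and not in fetal cells. Across the batch, the fetal count matched or passed the adult one at 4.97% of adult-only contacts within a chromosome, and the reverse held at 0.979% of fetal-only contacts.

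Fetal-only contacts of Egr1 had low scores. All 5 scored between 1.41 and 1.75, within 1 unit of the calling threshold, as did 70.7% of the batch's contacts called in a single population. They lay at 167.7 and 83.7 kb on the lower side and at 604, 670 and 800 kb on the higher side. Their fetal counts ran from 7 to 15 and their adult counts from 0 to 8. The bin at 167.7 kb had 8 fetal and 0 adult counts, the only Egr1 bin whose fetal share had an interval (63.1 to 100) above 54.0%. This bin is listed through its fetal call, so the share is not independent of that call. The same bin bore no mark, open chromatin included, in either population. The bin at 670 kb was marked as an active enhancer and as open in fetal cells only, and had 7 fetal and 1 adult counts. The bin at 800 kb was an active promoter in both.

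By calling population, 5 of the 10 adult Egr1 calls were at active promoters and 2 at active enhancers, so that 70.0% (34.8 to 93.3) met either. Of the 9 fetal calls, 1 was at an active promoter and 4 at active enhancers, 55.6% (21.2 to 86.3). Over the batch, active promoters or enhancers took 31.1% of adult and 28.0% of fetal calls, and active enhancers alone 13.1% and 12.7%. Open chromatin held 9 adult and 7 fetal Egr1 calls, beside 54.6% and 53.0% over the batch. The counts of all 15 Egr1 contacts came to a fetal share of 47.7% (43.4 to 52.1), below the batch's 54.0%. The listed contacts were selected by their calls, so this share is not independent of which population called them.

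**Figure D2:**
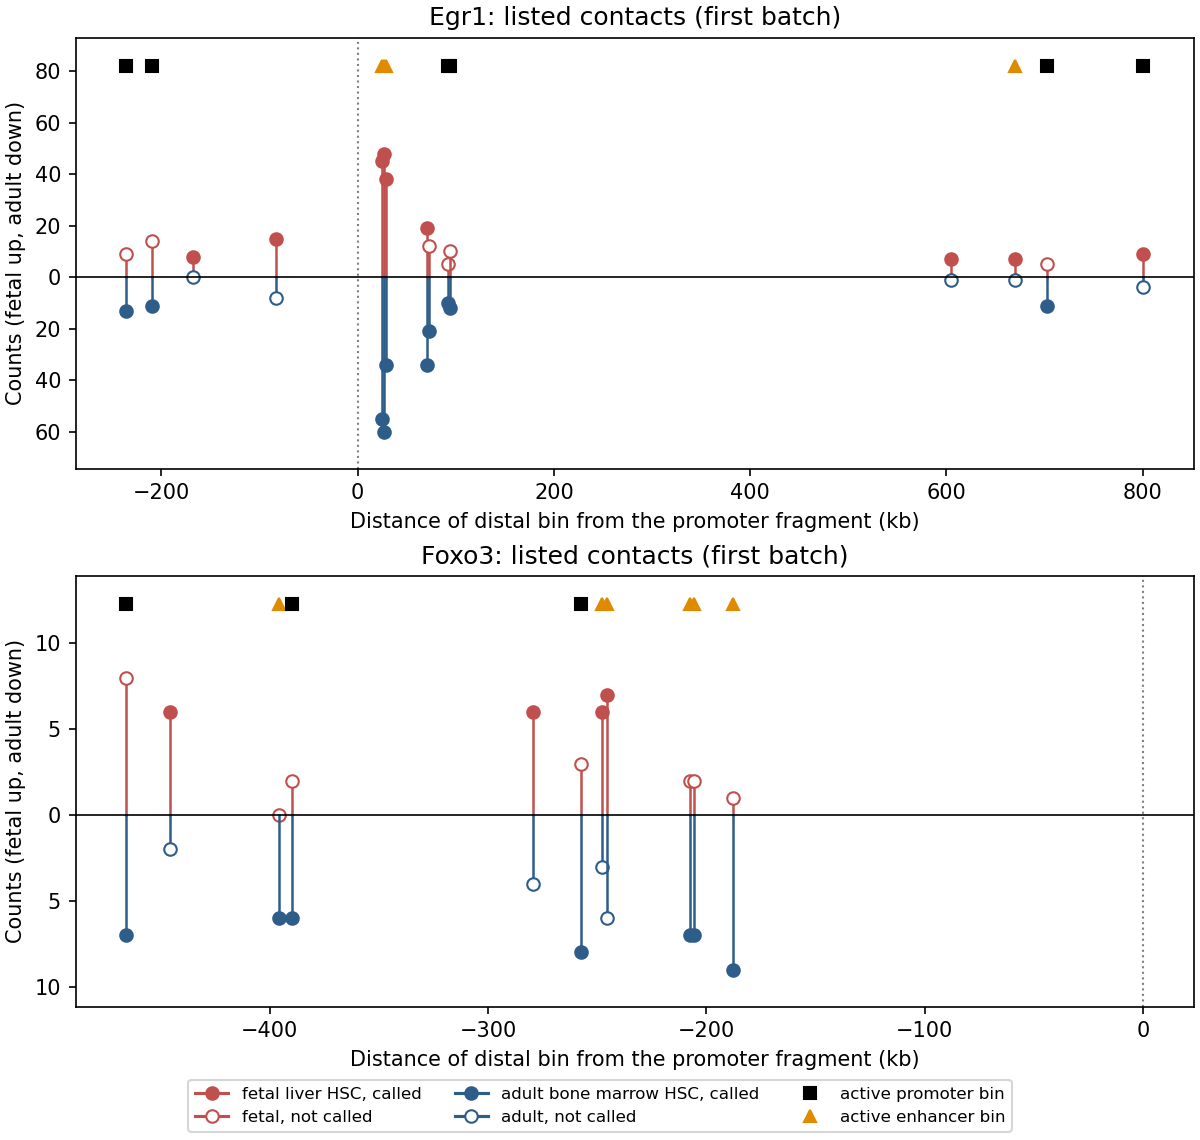
Counts of each listed contact of Egr1 (top) and Foxo3 (bottom) against the distance of the distal bin from the promoter fragment in kb, negative towards lower coordinates, with fetal counts drawn upward and adult counts downward. Filled circles were called in that population and open circles were not; squares mark active promoter and triangles active enhancer bins of either population. Egr1 has its tallest bars at 24.3 to 28.3 kb in both populations, while all Foxo3 contacts lie between 188 and 466 kb on the lower side.

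The listed contacts of the Foxo3 promoter were all far away and on a single side. The promoter had 4 fetal and 7 adult calls, beside batch medians of 11 and 10. Fewer fetal calls were found at 22.7% of the batch's entries, and fewer adult calls at 36.9%. The log2 ratio of its calls was -0.68, with 277 entries of the batch below that value and 1665 above. None of the 11 contacts was called in both populations in the same bin, and 4 of the 15 Egr1 contacts were. When bins within 20 kb of each other were matched, 75.0% of the fetal and 28.6% of the adult Foxo3 calls had a partner, and 44.4% and 50.0% of those of Egr1. For the same bin, a count of 0 allows, by the rule of 3 counts, a shared part of up to 75.0% of the 4 fetal and 42.9% of the 7 adult calls, and the exact Clopper-Pearson upper limits are 60.2% and 41.0%. Of the batch's entries with at least 10 listed contacts and calls in both populations, 7.65% shared none. Over the distances that Foxo3 covers, 48.0% of the batch's contacts were fetal only, 32.5% adult only and 19.6% shared.

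The captured Foxo3 fragment (transcript ENSMUST00000105502) lay at chr10:41996281-41997007 (mm9, 726 bp), and RefSeq places the gene on the minus strand, so that it is transcribed towards lower coordinates. All 11 distal bins lay on that side. Among the batch's entries with at least 10 listed contacts, 8.98% had their contacts within a chromosome on 1 side only. The nearest Foxo3 bin was 188 kb away and the farthest 466 kb, and the Foxo3 gene spans 94.9 kb in GRCm38, so no listed contact fell within the gene. A nearest contact at least that far was seen at 1.34% of such entries. The median distance of fetal calls was 264 kb and that of adult calls 258 kb, against batch medians of 178 and 153 kb.

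Every adult contact of Foxo3 fell on an active regulatory bin. Of the 7, 3 were at active promoters and 4 at active enhancers, 100% (59.0 to 100), where the batch gave 29.2% for adult calls over the same distances. The interval treats the bins as separate, but merging those up to 5 kb apart left 5 regions. All 7 bins were open in adult cells. The highest adult score was 3.16, at the nearest bin, 41808001 to 41810001 (188 kb), an active enhancer in both populations with 1 fetal and 9 adult counts. The fetal share there was 10.0% (0.253 to 44.5), an interval below the share of 52.7% over the batch at these distances. This bin is listed through its adult call, so the share is not independent of that call. The enhancer bins at 206 and 208 kb each had 2 fetal and 7 adult counts with a score of 1.58. The enhancer bin at 396 kb had 0 fetal and 6 adult counts. The bins at 206 and 396 kb were open in adult cells only, and the other 5 in both populations. The promoter bins at 258 and 390 kb had 3 fetal and 8 adult counts, and 2 and 6.

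The 4 fetal contacts of Foxo3 had 6 or 7 fetal counts each and scores of 1.74 to 2.28. A neighbouring pair, at 246 and 248 kb, was marked as active enhancer and open in both populations. Its counts were 7 fetal and 6 adult in the nearer bin, and 6 and 3 in the farther bin. The bin at 446 kb was a primed enhancer and open in fetal cells only, with 6 fetal and 2 adult counts. Primed enhancers, which carry an enhancer mark without that of activity, took 1.77% of fetal and 1.36% of adult calls over the batch. The bin at 280 kb carried no mark, with 6 and 4 counts. Thus 2 of 4 fetal calls (50.0%, 6.76 to 93.2) were at active enhancers, where the batch gave 25.5% for active promoters or enhancers at these distances. The 6 active enhancer bins that Foxo3 met were marked so in both populations, and so were its 3 active promoter bins. Which of these bins was called differed between the populations, while the active marks of the bins did not.

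These Foxo3 calls rested on thin counts. Called contacts had 6 to 7 counts in fetal and 6 to 9 in adult cells, beside a median of 9 in either population over the same distances in the batch. Of the 11 contacts, 10 scored within 1 unit of the threshold. The listed counts summed to 43 fetal and 65 adult, a fetal share of 39.8% (30.5 to 49.7), where the batch gave 52.7% at these distances. This share, too, is not independent of which population made the calls. At a score 1 unit stricter no fetal call was left and 1 adult call, that at 188 kb, again without a batch value at that score.

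Both promoters met promoters of other captured genes, and these contacts could be read from both ends. For Foxo3 the partner was Sesn1, which encodes sestrin 1, an antioxidant and growth-restraining protein known as a FOXO and p53 target. In RefSeq's gene order a single protein-coding gene, Armc2, starts between them. From the Foxo3 end, the bin 41530001 to 41532001 (466 kb), which holds the middle of the captured Sesn1 fragment (chr10:41529966-41530601), had 8 fetal and 7 adult counts. It was called in adult cells only, with a score of 1.91. From the Sesn1 end, the bin with the Foxo3 fragment had 8 fetal counts with a score of 2.62 and 16 adult counts with a score of 9.65, and was called in both populations. A further 5 bins within 5 kb of the Foxo3 fragment were called from Sesn1 in 1 or both populations, which made an unbroken stretch from 41990001 to 42002001 with 41 fetal and 41 adult counts. The contact that was adult only from Foxo3 was thus shared when read from Sesn1. Sesn1 RNA stood at 15.1 FPKM in fetal and 10.6 in adult cells, unmarked in the authors' deposited table.

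The promoters that meet in this contact are shown as the 250 bases before each RefSeq start (GRCm38.p6), with CG dinucleotides in capitals. The RefSeq table has 1 start for Foxo3 and 2 for Sesn1. The Sesn1 start shown lies 466 kb from that of Foxo3, the spacing of the captured fragments, while the other lies 389 kb away. That second spacing is close to the distance of the Foxo3 bin at 390 kb. This bin was an active promoter in both populations and was called from Foxo3 in adult cells only. Coordinates were not converted between builds, and whether the bin holds the second Sesn1 start was not tested. Foxo3 is at chr10:42276696-42276945 on the minus strand and Sesn1 at chr10:41810324-41810573 on the plus strand.
Foxo3: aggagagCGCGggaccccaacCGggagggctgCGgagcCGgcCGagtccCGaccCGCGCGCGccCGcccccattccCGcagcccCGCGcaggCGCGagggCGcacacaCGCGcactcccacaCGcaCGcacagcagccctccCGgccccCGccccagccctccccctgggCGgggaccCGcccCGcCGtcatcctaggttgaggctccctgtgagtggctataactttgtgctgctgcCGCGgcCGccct
Sesn1: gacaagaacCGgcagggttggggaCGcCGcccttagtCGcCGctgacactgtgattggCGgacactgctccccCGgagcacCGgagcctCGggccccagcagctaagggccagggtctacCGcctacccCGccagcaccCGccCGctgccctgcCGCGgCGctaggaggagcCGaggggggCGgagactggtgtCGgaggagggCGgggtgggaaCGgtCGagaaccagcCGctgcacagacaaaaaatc

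Both are rich in CG, with 31 dinucleotides in Foxo3 and 23 in Sesn1 where the median of 32851 RefSeq promoters was 6. Neither stretch holds GATC, the sequence DpnII cuts, which 41.9% of promoters hold in this window. The forkhead core GTAAACA, sought on both strands, was in neither. It occurs once in the Sesn1 promoter just after the start, as the reverse strand TGTTTAC at bases 23 to 29, and in 3.65% of all promoters over the 300 bases searched. The EGR motif GCGTGGGCG was found in neither promoter over those 300 bases, and is held by 0.612% of all. The site in Sesn1, at chr10:41810585-41810614 on the plus strand, is shown with the forkhead core in capitals.
Sesn1 site: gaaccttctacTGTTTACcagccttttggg

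Egr1 met the promoters of Brd8 and Kif20a, which share a fragment, and of Cdc23 on its lower side. The bin 34784001 to 34786001 (235.7 kb) holds the fragment of Brd8, a bromodomain protein, and Kif20a, a mitotic kinesin, and had 9 fetal and 13 adult counts. The bin 34810001 to 34812001 (209.7 kb) holds the fragment of Cdc23, a subunit of the anaphase-promoting complex, with 14 fetal and 11 adult counts. Both were called from Egr1 in adult cells only, with scores of 4.73 and 3.22. From the Brd8 end the Egr1 bin had 13 fetal and 10 adult counts and was again called in adult cells only, with a score of 2.74. From the Cdc23 end it had 14 fetal and 13 adult counts and was called in both populations, with scores of 3.28 and 5.28. In the second batch the same fragment, named there for Kif20a, had no listed contact with the Egr1 bin. Cdc25c, a phosphatase that starts mitosis, contacted the Egr1 bin in that batch with 22 fetal and 17 adult counts, and was called in fetal cells only.

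**Figure D3:**
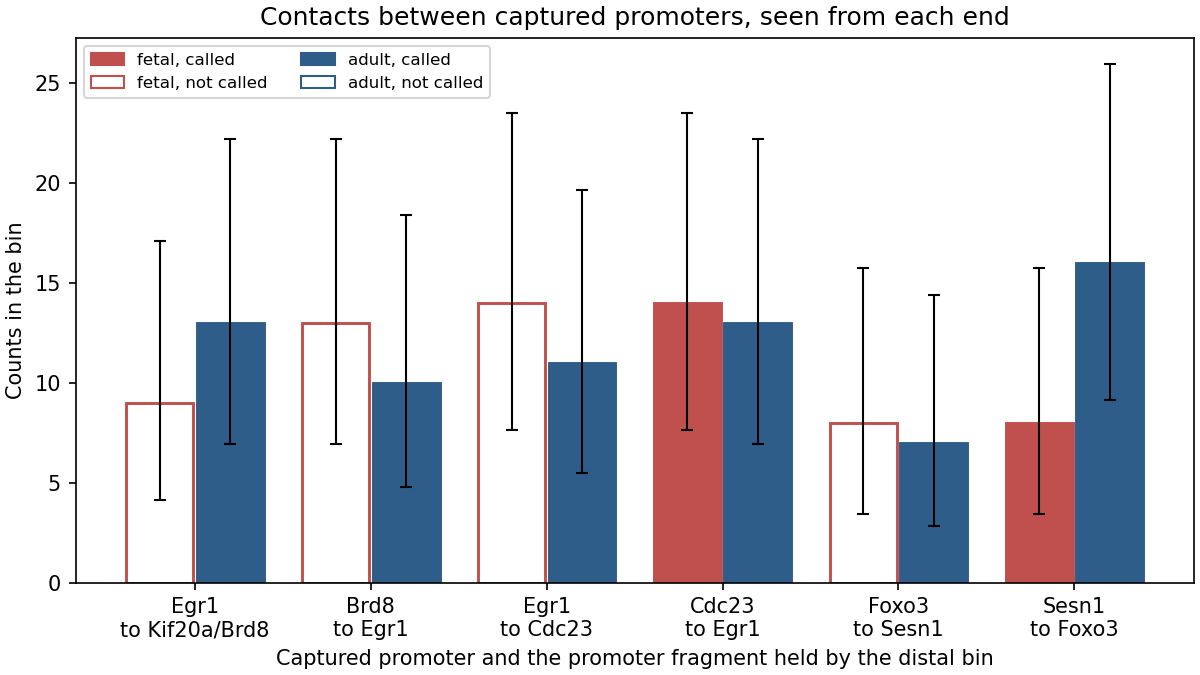
Counts in the bin that holds the partner's promoter fragment, for each contact between captured promoters read from each end, in fetal (red) and adult (blue) cells of the first batch, with exact Poisson 95% intervals that cover counting error only. Filled bars were called and open bars were not; in each pair of bars the fetal and adult intervals overlap, also where only the adult bar is filled.

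In the 6 views within the first batch the adult contact was called in 6 and the fetal contact in 2. Of the batch's 2802 contacts whose bin held a captured fragment, 76.4% were called in adult and 63.6% in fetal cells. The view from Cdc25c in the second batch, called in fetal cells only, went the other way. The fetal counts were higher than the adult counts in 4 of the 6, and in 3 of those 4 the fetal contact was not called. These counts are unscaled, and fetal counts made up 54.0% over all contacts of the batch within a chromosome. How the caller weighs a count against its background is not given in the sources used here. Probes at both ends draw on the same libraries, and the views are not independent. Among all contacts of the batch 5.61% had a captured fragment in their bin, as did 2 of the 15 Egr1 bins and 1 of the 11 Foxo3 bins.

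In the list of immediate early and EGR genes, most entries had more RNA in adult cells. Beside immediate early genes like Egr1, the list holds Nab1 and Nab2, corepressors of EGR factors, and Elk4, a serum response cofactor. Of 28 listed genes 10 were captured, as 11 promoter entries, and 10 of these entries had a higher FPKM in adult cells, beside 52.7% of all 3781 entries. A single entry, Atf3, named here as the exception after its values were seen, was higher in fetal cells, beside 47.0% of all. In the first batch alone 7 of 8 were higher in adult cells beside 51.3%, and 1 in fetal cells beside 48.0%. The list's median log2 ratio of FPKM was -1.90, where all entries had -0.13. The authors' deposited table marks 7 of the 11 as differentially expressed and higher in adult cells, beside 36.3% of all entries, and none as higher in fetal cells. The second batch holds marked promoters only, and in the first batch 4 of 8 were so marked, beside 19.7%. Fos, an AP-1 subunit, was at 0.0899 FPKM in fetal and 62.3 in adult cells. Jun, its partner, was at 2.18 and 109 FPKM, without a mark in the authors' deposited table. Dusp1, a MAP kinase phosphatase, was at 2.43 and 43.1 FPKM. Elk4 was at 3.49 and 7.27 FPKM.

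The contact calls of these genes were split much as those of all promoters. Of the 11 entries 6 had more fetal calls, 4 more adult calls and 1 the same number, and over all entries 49.1% had more fetal and 40.2% more adult calls. The median log2 ratio of calls was 0.13, where all entries had 0. Fos had 33 fetal and 23 adult calls, Jun 31 and 32, Dusp1 42 and 35, and Elk4 44 and 40.

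**Figure D4:**
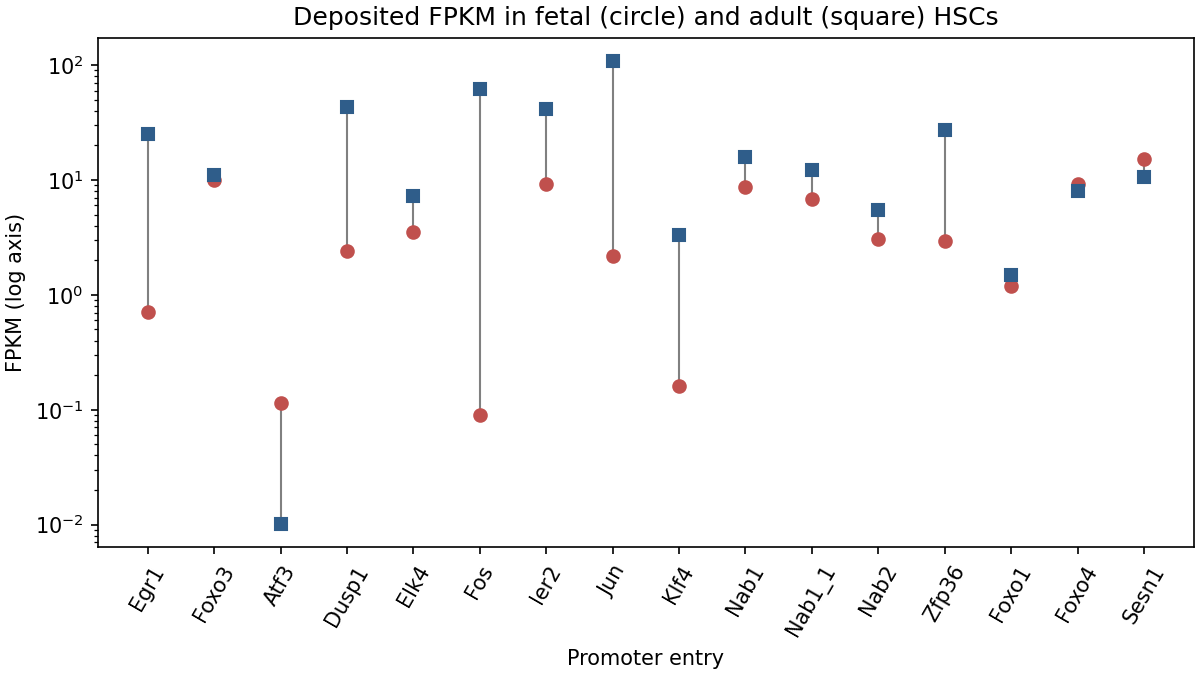
Deposited FPKM on a log axis in fetal (circles) and adult (squares) cells, 1 value per population, for Egr1 and Foxo3, the captured immediate early and EGR genes in alphabetical order, and Foxo1, Foxo4 and Sesn1. The lines of Egr1, Fos and Jun are long, with 0.702 and 25.3 FPKM at Egr1, whereas the points of Foxo3 nearly coincide at 10.1 and 11.1 FPKM.

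The captured paralogues of Foxo3 also had log2 ratios of FPKM near 0, with 0.18 at Foxo4 and -0.19 at Foxo1. Foxo4 stood at 9.24 FPKM in fetal and 8.06 in adult cells, with 6 fetal and 7 adult calls and, as at Foxo3, none shared. Foxo1 stood at 1.19 and 1.50 FPKM, with 1 call in each population and none shared. Of the 22 genes of the list of FOXO factors and their upstream control, 12 were captured, as 20 entries. A higher adult FPKM was found at 12 and a higher fetal FPKM at 8, beside 52.7% and 47.0% of all entries, with a median log2 ratio of -0.18. The authors' deposited table marks 2 as higher in adult and 1 as higher in fetal cells, beside 36.3% and 30.4% of all entries. Those 2 shares include the second batch, which holds marked promoters only. In the first batch 1 of 18 was marked as higher in adult and 0 as higher in fetal cells, beside 19.7% and 15.8%. The Atm kinase, which senses DNA breaks, was at 2.58 FPKM in fetal and 6.28 in adult cells, without a mark in the authors' deposited table. Another promoter entry of Atm, also without a mark, was at 2.07 and 3.05 FPKM. Calls were numerous at Ywhaz, a 14-3-3 protein that retains FOXO factors in the cytoplasm, with 82 fetal and 71 adult. A further promoter entry of the deacetylase Sirt1 had 86 and 64.

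Targets of FOXO factors had more entries higher in adult RNA over both batches, and were nearly even in the first batch alone. Of 25 listed genes 13 were captured, as 16 entries, of which 11 had a higher adult FPKM, beside 52.7% of all entries. In the first batch 6 were higher in adult and 5 in fetal cells, beside 51.3% and 48.0%, and the 5 entries of the second batch, which holds marked promoters only, were all higher in adult cells. The authors' deposited table marks 10 of them as higher in adult and 1 as higher in fetal cells, beside 36.3% and 30.4% of all entries. In the first batch 5 of 11 were marked as higher in adult cells and 1 as higher in fetal cells, beside 19.7% and 15.8%. The median log2 ratio of FPKM was -0.77. Pik3ip1, an inhibitor of PI3K, was at 4.95 FPKM in fetal and 14.5 in adult cells. Txnip, which binds thioredoxin and limits glucose uptake, was at 36.7 and 88.7 FPKM. Ccnd1, cyclin D1, a gene that FOXO factors repress, was the entry marked as higher in fetal cells, at 10.9 and 6.09 FPKM, with 71 fetal and 61 adult calls. Another cyclin D gene of the list, Ccnd2, named here after its values were seen, was marked the other way, at 19.7 and 34.7 FPKM. Fbxo32, a ubiquitin ligase of muscle wasting, was at 0.869 and 2.18 FPKM, with 62 and 48 calls. In calls the median log2 ratio over the list was -0.04.

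Regulators of HSC quiescence in general did not share a direction. Of 27 genes 21 were captured, as 31 entries, with 17 higher in adult and 14 higher in fetal cells, beside 52.7% and 47.0% of all entries, and a median log2 ratio of FPKM of -0.09. The authors' deposited table marks 6 as higher in adult and 5 as higher in fetal cells, beside 36.3% and 30.4%. Those 2 shares include the second batch, which holds marked promoters only. In the first batch 4 of 28 were marked as higher in adult and 4 as higher in fetal cells, beside 19.7% and 15.8%. Cdkn1c, the p57 cell cycle inhibitor, was at 11.2 FPKM in fetal and 6.88 in adult cells, with 54 fetal and 51 adult calls. Gfi1, a repressor that restrains HSC division, was at 11.0 and 1.54 FPKM. Cdkn2c, the p18 inhibitor, was at 0.706 and 3.26 FPKM. A further promoter entry of Tgfbr1, a receptor of TGF-beta, had 48 fetal and 41 adult calls. The median log2 ratio of calls was 0.09, and 18 entries had more fetal and 10 more adult calls, beside 49.1% and 40.2% of all entries. All 4 lists were drawn up with earlier results of these data known.

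The promoters most like each gene were found by the Euclidean distance over 4 values, log2(FPKM + 1) and log2(calls + 1) in each population, within the batch. For Egr1 these were a further Sdsl entry (distance 0.85), the Sdsl promoter (0.93) and Myl10 (0.96). The further Sdsl entry had 0.190 FPKM in fetal and 15.7 in adult cells, with 10 fetal and 11 adult calls, of which 1 was shared. For Foxo3 they were Chek1 (0.25), Gnl2 (0.38) and Wdr45l (0.43). Chek1, a checkpoint kinase, had 12.1 and 11.4 FPKM with 4 fetal and 7 adult calls, the same numbers as Foxo3, of which 2 were shared.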

How the data were processed

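Capture-C was measured in fetal liver and adult bone marrow HSCs. Trim Galore 0.41, Bowtie2 2.2.2 and build mm9 are named in the submitters' processing notes, without their roles. The caller, LiMACC, is named only in the name of the table, and filters, duplicate treatment and the pooling of libraries are not given in the sources used here. The authors deposited a whole-number count and a score per contact and population, FPKM per promoter and 0 or 1 marks of 2 kb bins. Counts were used as deposited by the authors. Every column of values belonged to a population, leaving 0 unassigned.

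Distances run between the middles of the fragment and the bin. Shares carry exact Clopper-Pearson 95% intervals. No model was fitted, since the values are pooled. Both genes' rows were described in full. Contacts, list genes (the 2 with the most calls and the 2 with the largest FPKM ratio in each list, plus the FOXO paralogues) and the 3 most alike promoters follow a written rule. Some genes that the rule or the marker lists would name are not reported here, and the marker sums leave them out. The members and lists were chosen with earlier results of these data known. Gene names, promoter sequences and gene order are from RefSeq (GRCm38.p6), used without conversion of coordinates. Functions were checked on made-up data. Python 3.11.15, pandas 2.3.3 and scipy 1.17.1 were used.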

Additional observations from a re-analysis of the deposited data

How the results depend on the processing

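Of 46 values recomputed under alternatives, 36 kept their direction and lay within 1.5 times the reported count, distance or ratio, or within the interval of the reported share. Some of these 36 could not have moved. A limit of at least 20 kb removed no contact, since the nearest lay at 24.3 kb for Egr1 and 188 kb for Foxo3. Distances from edge to edge differ from those between middles only through the sizes of fragment and bin. A score 1 unit stricter (2.30) left 2 fetal Egr1 calls, a log2 ratio of calls of -1.42 and a median fetal distance of 48.3 kb, and 0 fetal and 1 adult Foxo3 calls. Batch values at that score are not given here. Merging called bins up to 5 kb apart left 6 adult Egr1 regions and reversed the log2 ratio of calls to 0.19. Bins within 20 kb of each other raised the shared part of fetal Foxo3 calls to 75.0%, with 28.6% of adult calls. Scaling both populations to equal totals gave a fetal share of Egr1 counts of 43.3%. By construction, that scaling also lowers the share over all listed contacts of the batch, from 54.4% to an even split. A pseudocount of 0.1 moved the log2 ratio of Egr1 FPKM to -4.99. The fewer calls under the stricter score and the merging follow from their construction. For the wider match, more coincident bins are admitted. No paired analysis was possible because the table holds 1 pooled value per population and batch, and no library could be left out for the same reason. No median fetal distance of Foxo3 could be had at the stricter score, and no share over shared Foxo3 contacts. None of the Foxo3 contacts had more than 9 counts in a population, which limits the precision of their shares.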

Other observations

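Several bins that Egr1 met were also met by other captured promoters, mainly Brd8, Cdc23, Kif20a and Cdc25c on its lower side. Of the 15 Egr1 bins 8 (53.3%) were listed for another captured gene of the first batch, as were 2 of the 11 Foxo3 bins (18.2%), beside 22.5% of all 49944 contacts of the batch. The Egr1 share is thus above that of the batch and the Foxo3 share is not, without a test. Brd8 and Cdc23 each shared 6 bins with Egr1, and in the second batch Kif20a shared 5 and Cdc25c 4. Sesn1 was the only other gene at the Foxo3 bins, those at 390 and 206 kb from Foxo3.

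At the open, unmarked bin 35090001 to 35092001, where Egr1 had its highest adult score, Egr1 had more adult counts and its neighbours more fetal counts. Egr1 had 19 fetal and 34 adult counts there, a fetal share of 35.8% (23.1 to 50.2). Cdc23 had 18 and 11, and Brd8 19 and 14, in the same batch, together 59.7% (46.4 to 71.9). This last interval includes the share of 54.0% over all contacts of the batch within a chromosome. In the second batch Kif20a had 52 and 34 counts and Cdc25c 27 and 22. All 5 promoters were called there in both populations. In the adjoining bin, 35092001 to 35094001, the directions were mixed, with 12 fetal and 21 adult counts at Egr1, 5 and 8 at Cdc23, 11 and 9 at Brd8, and 21 and 22 at Kif20a. The intervals of Egr1 and of the others in its batch overlap, and the bin was picked out after its values were seen. At the bin 34936001 to 34938001, also met by these promoters, all 5 had more fetal counts, with 15 and 8 at Egr1. The fetal share was 65.2% (42.7 to 83.6) at Egr1 and 56.9% (44.7 to 68.6) over the others in its batch. Both intervals include the batch's 54.0%.

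Contacts of other promoters passed over the Foxo3 fragment from one side only. Of 44 contacts of Sesn1, 37 lay towards Foxo3, and 8 were beyond its fragment. Ostm1, 307 kb away on the higher side, had 13 of its 15 contacts towards Foxo3, and none lay beyond the fragment. Scml4 also had none beyond it, but only 2 of its 27 contacts lay towards Foxo3. No contact between Foxo3 and either Ostm1 or Scml4 was listed.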
